A study of Mus musculus with 9 samples.

Results

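Ligation of the deep cervical lymph nodes was compared with thrombosis alone in the brains of mice with cerebral venous sinus thrombosis (CVST), using the CVST+Ligation libraries 1 to 3 and the CVST libraries 1 to 3, which are 6 of the 9 libraries of the data set. All genes were compared: 20731 gene symbols were counted, and the 14746 with enough reads for edgeR's expression filter were tested. The mice were male C57BL/6J animals of 8 to 10 weeks, and in every one of them, controls included, the superior sagittal sinus was thrombosed by laying a thread soaked in ferric chloride on the exposed vessel. In the CVST+Ligation group the hilum of the deep cervical nodes was additionally tied off, and no drug was given. RNA was taken on day 2 after modelling. The CVST mice have no neck surgery named in the methods, so ligation cannot be told apart from the operation that exposes the nodes. The remaining 3 libraries, from ligated mice given the ER stress inhibitor 4-phenylbutyric acid (4-PBA), entered only the expression filter, the scaling and the estimate of the spread. The methods allot 3 mice per group to sequencing and the labels number 3 samples per group, without tying each sample to 1 animal, so the p-values measure the spread between these samples.

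Meningeal lymphatic vessels run along the dural sinuses and carry fluid, solutes and immune cells from the borders of the brain to the deep cervical lymph nodes. Tying off these nodes closes the outlet of that route, and thrombosis of a dural sinus blocks the venous outflow beside it. The question was which brain transcripts differ once both routes are closed. Bulk RNA from brain mixes neurons of several regions with glia, vessels and blood, and each cell type is known by genes that the others hardly use.

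The CVST libraries held 19392081 to 24166917 counted reads and the CVST+Ligation libraries 18835705 to 24157584. At that depth 3 counts equal 0.124 to 0.163 CPM (counts per 1000000 of the TMM-scaled library size), which was taken as the floor of detection and covers counting error only. The tissue is named as brain in the sample labels and the description of the series as cortex. Markers of cortical excitatory neurons were present in every library, with Slc17a7, the vesicular glutamate transporter of these cells, between 419 and 1974 CPM. Genes of other regions were present too, and 3 libraries stood apart by them or by genes that follow neuronal activity. CVST+Ligation 2 had the highest value of 19 of 20 cerebellar genes, and its Fat2, a cadherin of cerebellar granule cells, was 393 CPM against 0.245 to 9.85 in the other libraries. CVST 2 had 24.1 CPM of the activity-induced gene Fos, where the other CVST libraries had 218 and 210. CVST 3 had 11.7 CPM of the striatal sodium channel subunit Scn4b, where the other CVST libraries had 138 and 130.

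**Figure D1:**
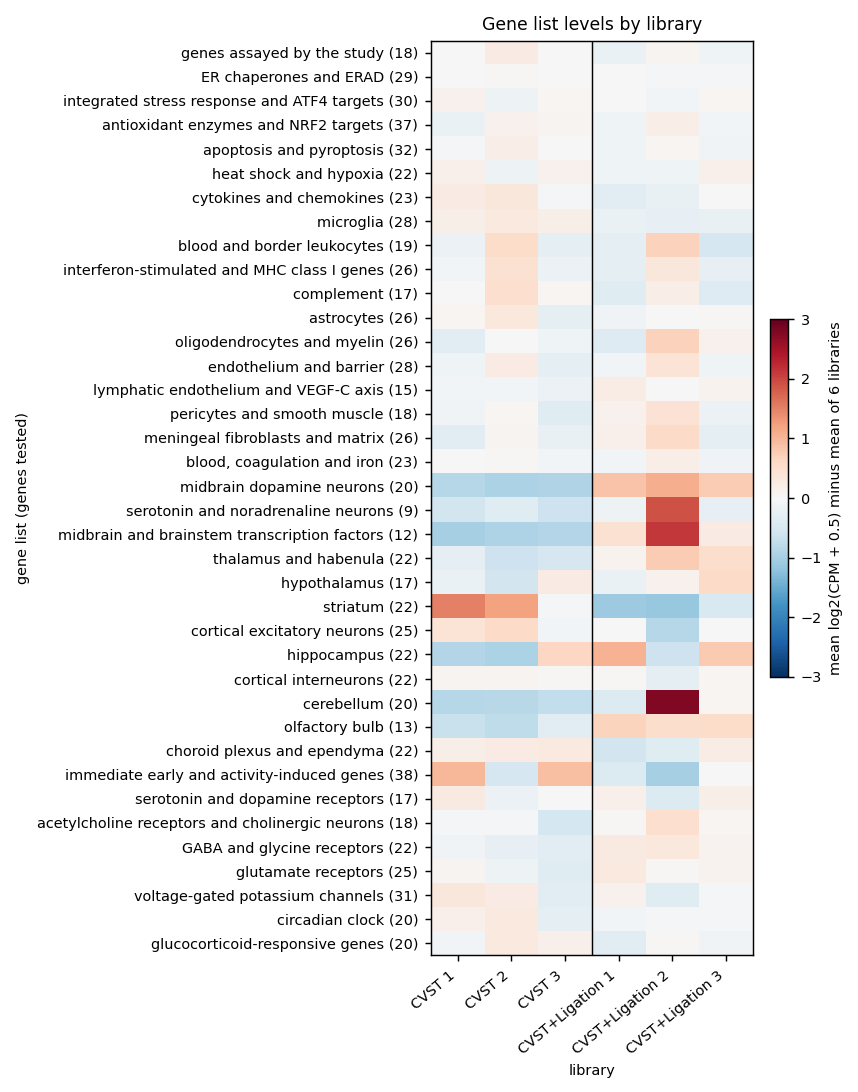
Level of 38 gene lists in the 6 libraries. Colour gives the mean log2(CPM + 0.5) of the tested genes of a list in a library minus the mean of the 6 libraries, the number of tested genes stands in brackets, and the vertical line separates CVST from CVST+Ligation. The midbrain dopamine list was above its mean in every CVST+Ligation library and below it in every CVST library, whereas the cerebellar list stood out in CVST+Ligation 2 with a value of 2.78.

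At an unadjusted p below 0.05 in edgeR's quasi-likelihood test, 9.64% of the tested genes differed between the groups (1422 genes), 5.47% higher and 4.18% lower after ligation. In what follows a gene is said to have risen or fallen where its unadjusted p was below 0.05. After Benjamini-Hochberg adjustment 3 genes passed 0.05, which is 0.0203% of those tested, and all 3 were higher after ligation. The number that passed was 0 without CVST 1 and 2 without CVST 2, of which 1 was higher and 1 lower. It was 1 without CVST+Ligation 1, 7 without CVST+Ligation 2 and 2 without CVST+Ligation 3. In 13.8% of the tested genes the values of the groups were fully separate, that is, without overlap. The genes were read through 38 lists of 9 to 38 tested genes each, and the share of each list that rose or fell was set beside these percentages. An exact permutation test on 1 gene cannot give a p below 0.1 with 3 libraries against 3.

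**Figure D2:**
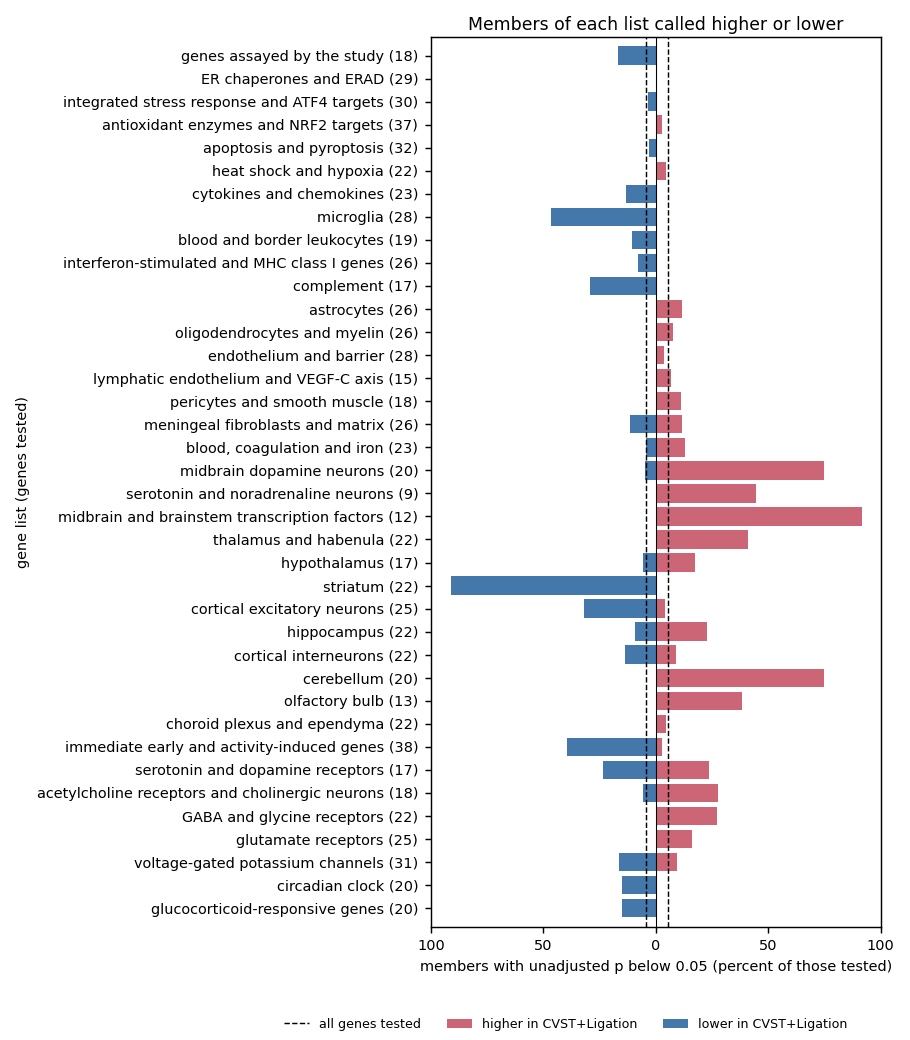
Share of the tested members of each list that rose (right) or fell (left) after ligation at an unadjusted p below 0.05 in edgeR's quasi-likelihood test. The dashed lines mark the shares among all genes tested, 5.47% higher and 4.18% lower. Lists of midbrain, thalamus and cerebellum reach far to the right, those of striatum, microglia and immediate early genes far to the left, and the list of ER chaperones has no bar. The bars of the midbrain lists include 8 of 12 transcription factors and 5 of 20 dopamine genes with under 10 counts in every CVST library, which were tested through the groups where they are high.

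The 3 genes that rose with the smallest p stand in the list of midbrain dopamine neurons, the cells that make dopamine from tyrosine and send it to the striatum and cortex. Of 20 listed genes 15 rose and 1 fell, and the median log2 fold change was 3.26, against 0.00 over all genes tested. Of these 20, 5 had fewer than 10 counts in every CVST library and passed the filter through the other groups. With 10 counts required of each library 11 were tested, 6 rose, 1 fell and the median was 1.31. Slc18a2, the vesicular monoamine transporter, was at 0.51, 0.31 and 0.38 CPM in the CVST libraries and at 16.8, 31.6 and 12.3 CPM after ligation, a ratio of the means of 49.7 (adjusted p = 0.00337, edgeR with Benjamini-Hochberg adjustment). It lies at 59260896 to 59296012 on chromosome 19 in GRCm38, on the plus strand. Every ligated library exceeded every CVST library by a wide margin. Ddc, which decarboxylates L-DOPA to dopamine, was at 5.18, 9.36 and 10.2 CPM in CVST and at 59.3, 127 and 55.0 CPM after ligation. Chrna6, a nicotinic receptor subunit of dopamine terminals, went from 0.085, 0.532 and 0.325 CPM to 11.7, 4.43 and 7.96 CPM. The adjusted p was 0.0411 for both (edgeR, Benjamini-Hochberg). They lie on chromosomes 11 (11814101 to 11898144) and 8 (27403212 to 27413944), each on the minus strand. Slc18a2 and Chrna6 also had under 10 counts in some CVST libraries. With 10 counts required of each library, 0 genes passed the adjustment.

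Other steps of dopamine handling moved alike without passing the adjustment. The gene of tyrosine hydroxylase, Th, was at 8.16 to 11.7 CPM in CVST and at 49.0, 20.6 and 46.0 CPM after ligation. Slc6a3, the transporter that takes dopamine back up, had 0 to 0.425 CPM in CVST and 66.2, 5.62 and 44.7 CPM after ligation. CVST+Ligation 2 was the lowest ligated library for both, while it was the highest for Slc18a2 and Ddc, which serotonin and noradrenaline neurons use as well. Of the transcription factors that specify these neurons, En1 rose from 0 to 0.085 CPM to 2.27, 8.66 and 2.29 CPM, and Foxa2, with 0 counts in each CVST library, had a mean at least 4.52-fold higher. Nr4a2, a factor that dopamine neurons share with activated cortical neurons, had 32.3 to 113 CPM in CVST and 37.3 to 69.7 CPM after ligation and did not pass the test. Drd2, which both midbrain and striatal neurons express, was the member that fell. In bulk tissue, fewer cells of a type and less RNA per cell cannot be told apart.

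Transcription factors of midbrain and brainstem followed the same order. Of 22 listed genes 12 were tested, 8 of which had under 10 counts in every CVST library, so their passing the filter already depended on the other groups. Gata3, a factor of midbrain GABA neurons, had 0, 0 and 0.054 CPM in CVST and 4.55, 10.7 and 3.65 CPM after ligation. Lhx5 had 0 counts in each CVST library and a mean at least 29.5-fold higher after ligation, and at least 14.5-fold higher without CVST+Ligation 2. Barhl1 was at least 27.1-fold higher with CVST+Ligation 2 and at least 1.5-fold without it. The hindbrain genes Hoxb3 and Hoxa5 were at 4.64 and 2.32 CPM in CVST+Ligation 2 and had 0 counts in the other 5. The same library held 136 CPM of Tph2, the enzyme of serotonin synthesis, against 0.965 to 1.36 CPM in the other 5, and 102 CPM of the serotonin transporter Slc6a4, which was at most 0.089 CPM elsewhere. Of 9 tested genes of serotonin and noradrenaline neurons 4 rose and 0 fell, with a median log2 fold change of 0.91. One of the 9 had under 10 counts in every CVST library, and with 10 counts required of each library 3 of 7 rose. Without CVST+Ligation 2, 11 were tested, 2 rose and the median was 0.00, and without CVST+Ligation 1, of 12 tested, 7 rose and 1 fell. With CVST+Ligation 2 left out, 13 of the 20 dopamine genes and 9 of the 12 transcription factors had an unadjusted p below 0.05, counts that include the members tested only through the groups where they are high.

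**Figure D3:**
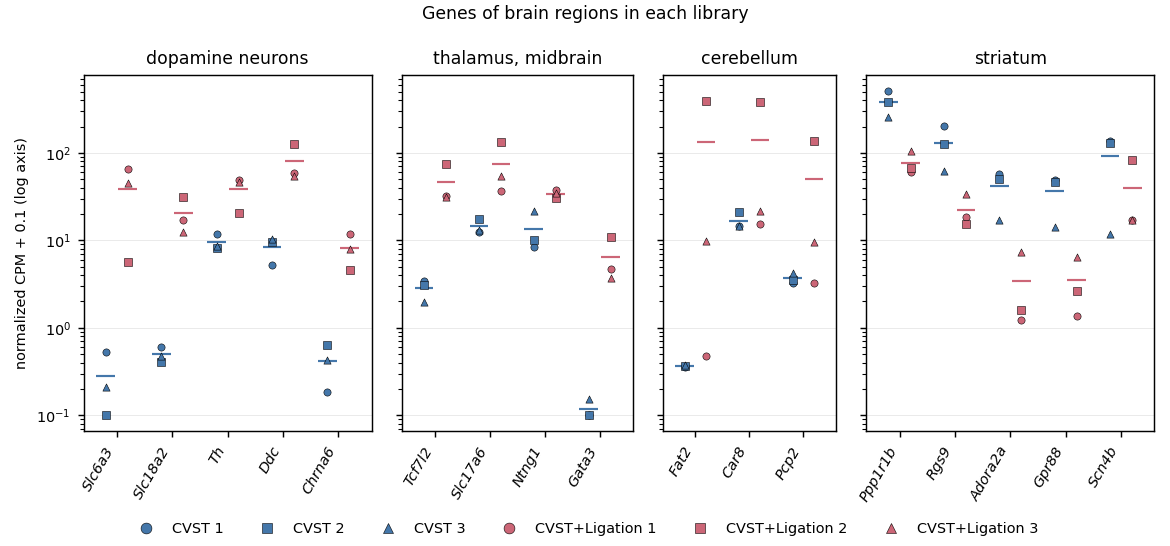
Normalized CPM plus 0.1 of genes of 4 regions in each library, on a log axis; points are libraries, marker shapes are replicate numbers and bars are group means. Dopamine and thalamic genes were higher in each CVST+Ligation library than in any CVST library, cerebellar genes were highest in CVST+Ligation 2, and the striatal genes except Scn4b did not overlap between groups.

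Genes of thalamus and habenula, the relays between brainstem, basal ganglia and cortex, also tended upward: 9 of 22 rose and 0 fell, with a median log2 fold change of 0.69. Of the 22, 2 genes, Shox2 among them, had under 10 counts in every CVST library and were tested through the groups where they are high, and with 10 counts required of each library 7 of 18 rose. Tcf7l2, a transcription factor that marks thalamic neurons in the adult forebrain, was at 3.36, 2.97 and 1.90 CPM in CVST and at 32.4, 74.6 and 31.1 CPM after ligation. Slc17a6, the vesicular glutamate transporter of subcortical neurons, was at 12.3, 17.6 and 13.2 CPM and then at 37.0, 134 and 53.7 CPM. Shox2 had 0 counts in the CVST libraries and its mean after ligation was at least 29.6-fold higher, or 17.9-fold without CVST+Ligation 2. The groups did not overlap for these 3 genes. Ntng1 rose too, from 8.37 to 21.4 CPM in CVST to 30.6 to 37.2 CPM. Other thalamic genes did not pass the test, such as Rora at 0.488 to 2.97 CPM in CVST and 2.37 to 5.0 CPM after ligation, and the calcium channel gene Cacna1g, whose log2 fold change was -0.01 with a standard error (SE) of 0.21. Without CVST+Ligation 2, 8 members rose.

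Striatal genes fell as a group. The striatum is built of medium spiny neurons, which receive the dopamine of the midbrain, and 20 of 22 of their genes fell after ligation, 0 rose and the median log2 fold change was -1.70. Ppp1r1b, which encodes the dopamine-regulated phosphoprotein DARPP-32, was at 514, 387 and 258 CPM in CVST and at 60.6, 67.6 and 104 CPM after ligation. The regulator of G protein signaling Rgs9 was at 205, 127 and 61.2 CPM, then at 18.3, 15.3 and 33.6 CPM. Neither gene overlapped between the groups. Of the receptors that divide these neurons into classes, Drd1 had 70.8, 50.7 and 17.6 CPM in CVST and 9.88, 3.20 and 16.6 CPM after ligation, and Adora2a had 56.9, 50.7 and 17.0 CPM and then 1.12, 1.49 and 7.25 CPM. Drd2 overlapped, because CVST 3 with 12.9 CPM lay within the ligated range of 11.8 to 15.5 CPM. The opioid peptide gene Penk stayed high in CVST 3, at 629 CPM against 754 and 572 in the other CVST libraries, and had 77.7, 145 and 309 CPM after ligation.

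All 22 striatal genes were highest in CVST 1. The summed level of the list was 3413, 2630 and 1628 CPM in the CVST libraries and 698 to 1052 CPM after ligation, so the groups did not overlap, although CVST 3 lay nearer to the ligated libraries than to CVST 1. The number of striatal genes that fell was 20 without CVST 3, 10 without CVST 1 and 13 without CVST+Ligation 1. Isl1 and Scn4b were the members that did not pass the test.

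Genes of cortical excitatory neurons fell less. Of 25 genes 8 fell and 1 rose, with a median log2 fold change of -0.50. Tbr1, a factor of deep-layer neurons, was at 130, 147 and 74.3 CPM in CVST and at 43.1, 18.6 and 63.4 CPM after ligation, and Lamp5, of upper layers, was at 125, 266 and 80.2 CPM and then at 48.3, 68.6 and 54.1 CPM. Neither overlapped between groups. Etv1, a factor of layer 5 neurons, moved the other way, from 25.4, 27.6 and 41.3 CPM to 70.3, 66.9 and 55.5 CPM. The broadly expressed genes of these neurons did not pass the test: Slc17a7 was at 1761, 1420 and 1974 CPM in CVST and at 1433, 419 and 1406 CPM after ligation, and Camk2a overlapped throughout. CVST+Ligation 2 was lowest for 16 of the 25 genes. Without it 5 genes fell, without CVST 1 also 5 and without CVST 2 only 3. The median was -0.29 without CVST+Ligation 2 and -0.80 without CVST+Ligation 1.

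Cerebellar genes rose in number but mostly through 1 library. Of 20 tested genes 15 rose, 0 fell, and the median log2 fold change was 2.07. Of the 20, Fat2 and Barhl1 had under 10 counts in every CVST library and were tested through the groups where they are high, and with 10 counts required of each library 11 of 16 rose. Car8, a Purkinje cell gene, was at 14.6 to 20.8 CPM in CVST, at 15.4 and 21.5 CPM in CVST+Ligation 1 and 3 and at 385 CPM in CVST+Ligation 2. Pcp2, of the same cells, was at 3.14 to 4.18 CPM in CVST and at 3.18, 136 and 9.54 CPM after ligation. Without CVST+Ligation 2, 6 cerebellar genes rose and the median was 0.81. Gabra6, the granule cell GABA receptor subunit, was not tested, and had 0 counts in the CVST libraries and in CVST+Ligation 1, 211 CPM in CVST+Ligation 2 and 5.23 CPM in CVST+Ligation 3.

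Several hippocampal genes split the libraries otherwise than by group. Of 22 tested, 5 rose and 2 fell, with a median log2 fold change of 0.55, and the number that rose was 12 without CVST 3, where the median was 2.03, and 3 without CVST 1, CVST 2 or CVST+Ligation 1, the last with a median of 0.18. Prox1, a factor of dentate granule cells that lymphatic endothelium also needs, was at 6.93, 8.03 and 10.2 CPM in CVST and at 29.4, 16.7 and 24.7 CPM after ligation. The dentate gene C1ql2 had 0.085 and 0.044 CPM in CVST 1 and 2 but 11.3 CPM in CVST 3, and 29.8, 3.30 and 21.1 CPM after ligation. CVST 3, CVST+Ligation 1 and CVST+Ligation 3 were thus the libraries with high C1ql2. Of 17 genes of hypothalamus 3 rose and 1 fell, with a median log2 fold change of 0.07. Under 10 counts were found in every CVST library for 5 of the 17, and in every ligated library for 4. Such genes were tested through the groups where they are high. Without CVST+Ligation 1, 5 of 18 rose and 0 fell, and without CVST+Ligation 3, 1 of 18 rose and 2 fell. The median lay between -0.10 and 0.52 with 1 library left out. Of 13 genes of olfactory bulb 5 rose and 0 fell, against 3 of 8 with 10 counts required of each library, and 3 of those that rose also stand in the dopamine or thalamic lists (Th, Slc6a3 and Calb2). Whether the libraries held different amounts of tissue from these regions was not tested.

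Immediate early genes are switched on within minutes of neuronal firing or of other stimuli, and many encode transcription factors that act on later genes. Of 38 listed genes 15 fell after ligation and 1 rose, and the median log2 fold change was -0.83. Egr1, a zinc finger factor of active neurons, was at 451, 342 and 495 CPM in CVST and at 129, 103 and 184 CPM after ligation, a ratio of 3.1 between the means (adjusted p = 0.166, edgeR with Benjamini-Hochberg adjustment). Arc, whose protein acts at synapses, was at 275, 120 and 254 CPM and then at 63.8, 30.1 and 93.5 CPM. Arl4d, a small GTPase gene, was at 75.2, 24.4 and 75.2 CPM and then at 7.36, 13.9 and 15.7 CPM. None of these 3 overlapped between groups.

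CVST 2 set the spread of the control group for most other members. Fos, a subunit of the AP-1 factor, was at 218, 24.1 and 210 CPM in CVST and at 33.3, 55.2 and 54.2 CPM after ligation, so that CVST 2 was the lowest of all 6 libraries. Npas4, a factor induced by calcium entry, was at 167, 7.89 and 157 CPM in CVST and at 11.1, 3.45 and 4.13 CPM after ligation. Nr4a1, an orphan nuclear receptor, was at 287, 67.5 and 317 CPM and then at 59.5, 57.8 and 75.0 CPM. All 3 overlapped through CVST 2 alone. Without CVST 2 the number that fell was 20, and it was 10 without CVST 1 and 10 without CVST 3. The median was -0.55 without CVST 1 and -1.26 without CVST+Ligation 3. Per1, which activity and the clock both induce, differed little within groups, with 113, 101 and 111 CPM in CVST and 65.9, 76.1 and 74.6 CPM after ligation, a log2 fold change of -0.58 (SE 0.12).

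Not all members moved. Jun, the partner of Fos in AP-1, was at 110, 36.6 and 139 CPM in CVST and at 91.3, 39.6 and 103 CPM after ligation, and Nr4a3, Sik1 and Btg2 had log2 fold changes between -0.06 and 0.10, none of which passed the test. Klf4, which vessels also express, rose from 3.77 to 5.53 CPM to 5.33 to 12.1 CPM. The numbers differ from library to library within each group: the summed level of the list was 5180, 2500 and 5154 CPM in CVST and 2169, 1451 and 2871 CPM after ligation, and CVST+Ligation 2 was lowest for 20 of the 38 genes. Their part in the result, and that of the cortical and striatal genes that were lower in the same libraries, was not tested.

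**Figure D4:**
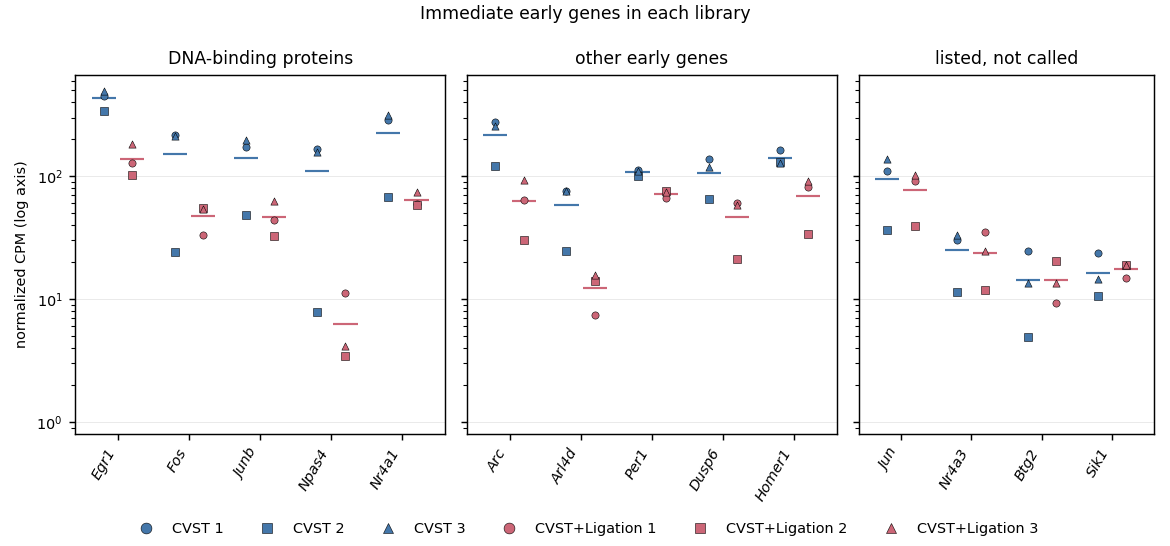
Normalized CPM of 14 immediate early genes in each library on a log axis; points are libraries, marker shapes are replicate numbers and bars are group means. The square of CVST 2 lies within or below the range of the CVST+Ligation libraries for Fos, Junb, Npas4 and Nr4a1, and above all of them for Egr1, Arc, Arl4d, Per1, Dusp6 and Homer1.

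The 250 bases upstream of the RefSeq start (GRCm38.p6) are shown for the 4 genes with the smallest p among the immediate early genes that fell and have an entry, because calcium and cAMP are known to act on such genes through elements close to their start. Each window runs 5′ to 3′ on the strand of the gene and ends at the base before the start. Capitals mark the full cAMP response element TGACGTCA or its core TGACG on either strand, the latter printed as CGTCA where it lies on the opposite strand. Arl4d spans chr11:101665291-101665540 on the plus strand, Per1 chr11:69098699-69098948 on the plus strand, Npas4 chr19:4989972-4990221 on the minus strand and Nr4a1 chr15:101266596-101266845 on the plus strand.
Arl4d: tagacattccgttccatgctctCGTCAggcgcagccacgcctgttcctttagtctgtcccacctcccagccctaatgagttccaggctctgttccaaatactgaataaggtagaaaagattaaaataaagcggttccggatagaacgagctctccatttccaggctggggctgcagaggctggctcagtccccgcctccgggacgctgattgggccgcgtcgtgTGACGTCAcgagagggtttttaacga
Per1: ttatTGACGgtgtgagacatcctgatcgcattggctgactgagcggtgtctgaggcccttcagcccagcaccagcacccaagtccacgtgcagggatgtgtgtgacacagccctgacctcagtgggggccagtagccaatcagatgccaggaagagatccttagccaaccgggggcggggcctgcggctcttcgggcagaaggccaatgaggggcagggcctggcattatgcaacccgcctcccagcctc
Npas4: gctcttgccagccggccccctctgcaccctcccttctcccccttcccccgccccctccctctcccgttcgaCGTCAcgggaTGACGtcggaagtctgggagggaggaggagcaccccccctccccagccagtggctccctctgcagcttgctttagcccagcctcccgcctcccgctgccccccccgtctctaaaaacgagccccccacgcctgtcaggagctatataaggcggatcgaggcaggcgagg
Nr4a1: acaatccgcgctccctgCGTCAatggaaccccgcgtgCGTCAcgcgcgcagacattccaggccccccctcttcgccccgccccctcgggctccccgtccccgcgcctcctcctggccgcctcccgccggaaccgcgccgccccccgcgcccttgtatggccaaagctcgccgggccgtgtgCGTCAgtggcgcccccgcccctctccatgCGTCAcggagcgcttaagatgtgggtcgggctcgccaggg

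Of the 15 genes that fell, 12 had such a window, and Egr1, Arc and Egr3 had no entry. The core TGACG stood in 9 of the 12 windows, and in 17.9% of all 27025 windows of the table. The full element, which contains the core on each strand, stood in 1 of the 12, that of Arl4d at 26 bases before the start, and in 1.62% of all windows. Nr4a1 held the core at 4 places. The binding site of the EGR factors (GCGTGGGCG) and the CArG box of serum response factor stood in 0 of the 12, and in 0.54% and 1.4% of all windows. These are matches of letters in a window, not evidence of binding. The listed genes that did not fall were not searched, so whether those that fell differ from them was not tested.

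The genes whose RNA or protein the study assayed by other methods were looked up next, since they stand for ER stress, inflammation and cell death. The paper reports GRP78, NeuN, IBA1, CD68, Bax, Bcl-2, NLRP3, iNOS and CD206 only as protein, whereas the values here are RNA. Of 22 genes 18 were tested, 0 rose and 3 fell, and those 3 were cell type markers. Hspa5, which encodes the ER chaperone GRP78, was at 738, 728 and 979 CPM in CVST and at 872, 739 and 864 CPM after ligation, a log2 fold change of 0.02 (SE 0.15). Ddit3, the gene of the stress factor CHOP, was at 65.7, 49.7 and 60.8 CPM and then at 47.0, 46.0 and 54.9 CPM, with a log2 fold change of -0.25 (SE 0.14). Atf4 was at 274, 210 and 331 CPM and then at 214, 196 and 263 CPM, with -0.28 (SE 0.18). The groups overlapped for each of these genes. The neuronal marker Rbfox3, which encodes NeuN, fell from 212, 228 and 166 CPM to 145, 138 and 159 CPM without overlap. Gfap, the filament gene of astrocytes, was at 792, 1216 and 608 CPM and then at 764, 800 and 665 CPM, and did not pass the test. Bax, Bcl2, Bbc3, Casp12, Nlrp3, Nos2 and Mrc1 did not pass it either, with log2 fold changes from -0.44 to 0.41. Il6, Tnf, Il17a and Il10 were at most 0.217 CPM in any library and were not tested.

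Longer lists of stress genes also held few calls. Of 29 ER chaperones and degradation factors 0 rose and 0 fell, where 9.64% of all genes did one or the other, and their median log2 fold change was -0.05. These counts depended on the setting: 2 genes rose without CVST 1, 2 fell without CVST 3, and 1 rose without CVST+Ligation 2. With DESeq2 or with total counts 2 rose and 0 fell, and with limma on either FPKM scale 2 rose and 1 fell. Hsp90b1, Pdia4, Xbp1 and Herpud1 had log2 fold changes of 0.02, -0.05, -0.13 and 0.00. Of 30 genes of the integrated stress response 1 fell, Nupr1, a stress-induced chromatin protein gene, which was at 104, 33.6 and 58.9 CPM in CVST and at 25.8, 14.3 and 35.8 CPM after ligation. In that list 4 genes fell without CVST 2, 1 rose and 0 fell without CVST 1, and 0 fell without CVST 3, CVST+Ligation 1 or CVST+Ligation 2. Among 37 antioxidant genes 1 rose, the secreted glutathione peroxidase gene Gpx3, from 6.37, 5.94 and 11.0 CPM to 12.6, 33.8 and 18.7 CPM, and the NRF2 gene Nfe2l2 had a log2 fold change of 0.12 (SE 0.18). Without CVST 3, 3 antioxidant genes rose, and without CVST+Ligation 2 a further 2 fell. Of 32 genes of apoptosis and pyroptosis 1 fell, Pmaip1, which was at most 1.49 CPM, and 0 fell without CVST 1, CVST 2, CVST+Ligation 1 or CVST+Ligation 2, the last of which left 1 that rose. Of 22 heat shock and hypoxia genes 1 rose, Hif1a, the oxygen-regulated factor, which went from 105, 98.5 and 92.9 CPM to 123, 139 and 120 CPM without overlap, and 2 rose without CVST 3 or CVST+Ligation 2.

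Microglia, the resident macrophages of the brain, were represented by 28 tested genes, of which 13 fell and 0 rose. The median log2 fold change was -0.48, and 26 of the 28 values were below 0. C1qa, C1qb and C1qc, the chains that start the classical complement cascade, fell together. C1qc was at 89.2, 116 and 118 CPM in CVST and at 64.8, 64.6 and 65.1 CPM after ligation, a ratio of 1.66 between the means. C1qa was at 117, 139 and 150 CPM and then at 84.0, 88.9 and 93.1 CPM. Trem2, a lipid receptor of these cells, was at 23.5, 26.4 and 27.1 CPM and then at 15.1, 18.9 and 16.6 CPM. For all 3 the groups did not overlap and the ligated libraries lay close to one another.

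Among further microglial genes, Aif1, whose protein is the histological marker IBA1, fell from 19.1, 17.5 and 22.1 CPM to 10.1, 11.0 and 13.5 CPM. The lysosomal gene Cd68 fell from 35.4, 43.6 and 38.4 CPM to 22.2, 23.4 and 22.9 CPM. Ctss, which encodes a lysosomal protease, fell by less, from 160 to 184 CPM to 138 to 152 CPM. The homeostatic receptor genes P2ry12 and Cx3cr1 and the surface marker Tmem119 did not pass the test, with log2 fold changes of -0.06, -0.32 and -0.26. Apoe, which astrocytes express as well, had the most positive value, 0.46 (SE 0.22), and did not pass either. The lowest adjusted p in the list was 0.288, from edgeR with Benjamini-Hochberg adjustment. The number that fell was 7 with scaling by total counts, under which 1 member rose, 5 without CVST 2, 8 without CVST+Ligation 1, 6 without CVST+Ligation 2 and 5 without CVST+Ligation 3. The median stayed between -0.53 and -0.43 in the fits that left out 1 library.

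**Figure D5:**
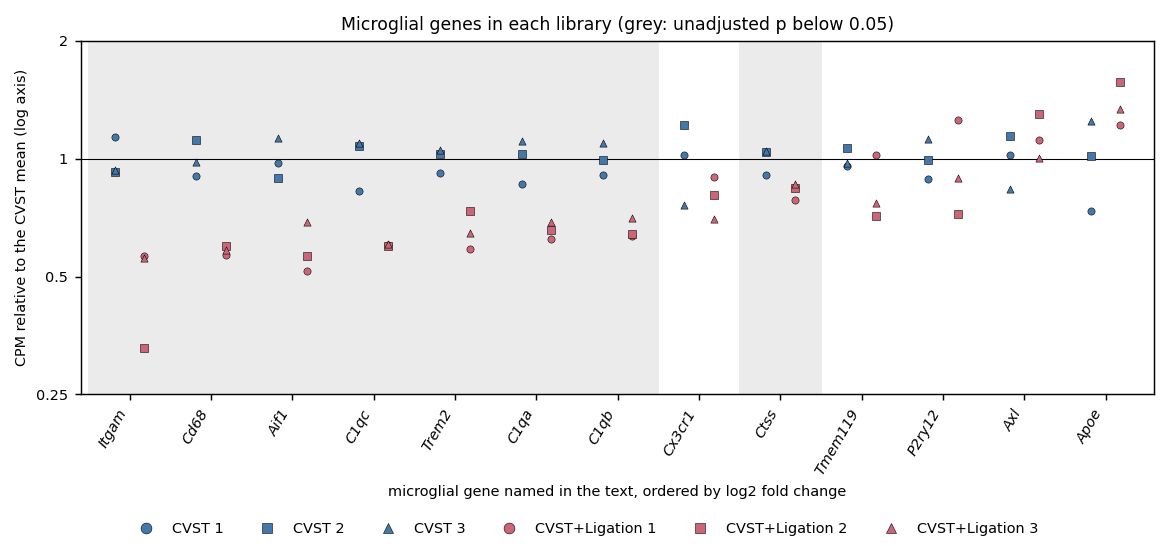
CPM of 13 of the 28 tested microglial genes, those named in the text, in each library divided by the mean of the CVST group, on a log axis; points are libraries, marker shapes are replicate numbers, and grey marks an unadjusted p below 0.05 in edgeR's quasi-likelihood test. In 8 of the 13 all CVST+Ligation libraries lie below all CVST libraries, as in 14 of the 28 tested. The 13 were partly chosen by a small p. Over all genes tested the groups did not overlap in 13.8%, higher or lower. Apoe and Axl are the only genes of the list with a log2 fold change above 0.

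The complement list had 17 tested genes and 5 fell: the C1q chains, Itgam and C1ra, a protease of the first complement component, which went from 12.2, 18.3 and 8.46 CPM to 3.26, 3.92 and 3.78 CPM. C3 and C4b, further down the cascade, were highest in CVST 2 and CVST+Ligation 2 in their groups and did not pass the test. Of 23 cytokine and chemokine genes 3 fell, and 1 fell without CVST 1 or without CVST+Ligation 2. Among the 23, 3 had under 10 counts in every ligated library, Ccl3 included, and were tested through the groups where they are high. With 10 counts required of each library 2 of 13 fell, and the median log2 fold change was -0.07 instead of -0.55. The neuronal chemokine gene Cx3cl1 was at 542, 485 and 396 CPM and then at 354, 191 and 400 CPM, and Il34, a growth factor of microglia made by neurons, was at 54.4 to 58.3 CPM and then at 48.9, 26.9 and 39.1 CPM. Ccl3 was at most 1.02 CPM in CVST and had 0 counts in each ligated library. Interferon-stimulated and MHC class I genes held 2 of 26 that fell, Psmb9 and Gbp3, and 0 that rose, with a median log2 fold change of -0.16. Without CVST 2, 0 of the 26 fell, 16 values were above 0 and the median was 0.12, whereas without CVST+Ligation 2 the median was -0.42 and 3 fell. The number that fell was 1 without CVST 1, CVST+Ligation 1 or CVST+Ligation 3.

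Markers of blood and border leukocytes were scarce. Of 30 genes 19 were tested, 0 rose and 2 fell, which were Cd4 and Trbc2, although 12 of the 19 values were above 0 and the median log2 fold change was 0.45. Among the 19, 3 had under 10 counts in every CVST library. Cd4 had under 10 in every ligated library and was tested through the groups where it is high. With 10 counts required of each library 10 were tested, 0 rose and 0 fell. The median was 0.98 without CVST+Ligation 3, with 3 of 20 genes that rose, 1.06 without CVST 2, with 1 of 20, and -0.39 without CVST+Ligation 2. Cd4 was at 9.26, 11.0 and 2.55 CPM in CVST and at 0.331, 0.361 and 0.352 CPM after ligation. Trbc2, a constant segment of the T cell receptor beta chain, was at 15.8, 21.3 and 9.11 CPM and then at 2.40, 2.32 and 4.31 CPM. Cd3g had 0 counts in all 6 libraries, and Cd3e and Cd8a were at most 0.217 and 0.052 CPM, so no change in these T cell markers was detectable at this depth. The neutrophil gene S100a9 was at 0.85, 3.99 and 1.74 CPM in CVST and at 0.413, 2.06 and 1.05 CPM after ligation. Genes of MHC class II and Lyz2 were highest in CVST+Ligation 2, with Cd74 at 14.3 CPM against 2.25 to 4.88 CPM elsewhere.

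In the lists of macroglia 7.69% of oligodendrocyte genes and 11.5% of astrocyte genes rose, against 5.47% of all genes tested. In both lists 0 genes fell, against 4.18% of all. Oligodendrocyte genes had a median log2 fold change of 0.40, and 24 of 26 values were above 0, but 2 genes rose. One of them was Aspa, which encodes aspartoacylase, at 14.5, 25.3 and 24.3 CPM in CVST and at 22.2, 54.5 and 32.9 CPM after ligation, with overlap. The number that rose was 12 without CVST+Ligation 1 1 without CVST 3 and 0 without CVST 1 or without CVST+Ligation 2, the library that was highest for 23 of the 26. The median was 0.03 without CVST+Ligation 2 and 0.64 without CVST+Ligation 1. Of 26 astrocyte genes 3 rose and 0 fell, and in a fit of only these groups 2 rose and 3 fell. Aqp4, the water channel of the end feet along which fluid enters the perivascular space, was at 28.1, 41.0 and 17.9 CPM in CVST and at 51.7, 65.5 and 35.3 CPM after ligation, with overlap through CVST 2. The glutamate transporter gene Slc1a3 was at 215, 270 and 188 CPM and then at 327, 385 and 261 CPM. Aldoc was at 486, 956 and 833 CPM and then at 949, 1860 and 950 CPM. The number of astrocyte genes that rose was 0 without CVST 3 or without CVST+Ligation 2, 1 without CVST 1 and 6 without CVST 2 or without CVST+Ligation 3.

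The routes that ligation closes are lined by lymphatic endothelium. Lyve1, the hyaluronan receptor of these vessels and of border macrophages, was near the floor, at 0.11 to 0.255 CPM in CVST and at 0.165, 0.825 and 0.176 CPM after ligation. Of 15 tested genes of lymphatic endothelium and the VEGF-C axis 1 rose, Prox1, described above with the hippocampal genes, and the median log2 fold change was 0.11, between 0.08 and 0.22 with 1 library left out. Without CVST 1 or CVST+Ligation 2 the number that rose was 3. Of 28 genes of blood endothelium and barrier 1 rose, Klf4, and the number was 4 without CVST 2, 3 without CVST+Ligation 3 and 0 without CVST+Ligation 2. Among 18 genes of pericytes and smooth muscle Acta2 and Myh11, the contractile proteins of arteries, rose, Myh11 from 10.9, 20.5 and 13.6 CPM to 36.2, 56.4 and 19.9 CPM. Without CVST+Ligation 2 neither passed the test, and 4 of the 18 rose without CVST 2 or CVST+Ligation 3 and 1 without CVST 1 or CVST 3.

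Of 26 meningeal and matrix genes 3 rose and 3 fell, and 20 values were above 0, with a median log2 fold change of 0.44. The number that rose was 5 without CVST+Ligation 3 and 1 without CVST 1 or CVST+Ligation 2, the number that fell was 1 without CVST+Ligation 1, and the median was 0.08 without CVST+Ligation 2 and 0.75 without CVST+Ligation 3. The basement membrane collagen gene Col4a2 fell from 92.6, 77.6 and 83.0 CPM to 57.8, 56.4 and 58.9 CPM, and Igfbp2 fell from 59.1 to 77.3 CPM to 47.9 to 54.7 CPM, each without overlap. Aldh1a1 and Ptgds were highest in CVST+Ligation 2, at 320 and 1417 CPM. Of 23 genes of blood, coagulation and iron 3 rose and 1 fell, and the number that rose was 7 without CVST+Ligation 3 and 1 without CVST 3, CVST+Ligation 1 or CVST+Ligation 2. In that list 0 fell without CVST 2, CVST+Ligation 1 or CVST+Ligation 2. The haemoglobin gene Hbb-bs was at 76.5, 98.9 and 80.5 CPM and then at 156, 162 and 85.2 CPM, and F2r, the thrombin receptor, was at 3.57, 3.02 and 2.93 CPM and then at 6.12, 8.09 and 6.73 CPM. Plau, which encodes the plasminogen activator urokinase, fell from 10.4, 7.32 and 6.24 CPM to 2.23, 4.02 and 4.40 CPM, and did not pass the test without CVST 1, CVST 2, CVST+Ligation 1 or CVST+Ligation 2.

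The lists of transmitter receptors share members with those of regions, and differences between them were not tested. Of 17 serotonin and dopamine receptors 4 rose and 4 fell, all 4 that rose being serotonin receptors and 3 of the 4 that fell dopamine receptors. Htr2c, which couples to calcium release, was at 14.1, 6.03 and 16.4 CPM in CVST and at 44.8, 53.0 and 37.8 CPM after ligation, and Htr7 was at 3.06, 3.72 and 3.31 CPM and then at 8.22, 7.52 and 7.12 CPM. Neither overlapped. The adjusted p of both was 0.25 from edgeR with Benjamini-Hochberg adjustment. Drd1, Drd2 and Drd3 fell, and the first 2 are also members of the striatal list. Among the 17, 1 had under 10 counts in every ligated library and was tested through the groups where it is high. Without CVST 1 the number that fell was 2. Of 18 acetylcholine genes 5 rose, among them Chrna6 and Chrna3, and the muscarinic receptor gene Chrm4, which striatal neurons express, fell from 33.4 to 41.1 CPM to 7.73 to 21.9 CPM. Among the 18, 1 had under 10 counts in every CVST library and was tested through the groups where it is high. The number of acetylcholine genes that rose was 3 without CVST 1 or CVST+Ligation 2. Of 22 GABA and glycine receptors and transporters 6 rose and 0 fell, including Gabrg1, at 6.50, 9.09 and 11.6 CPM and then 16.8, 20.9 and 16 CPM. Of 25 glutamate receptors 4 rose, among them Gria4 and Grin2c, and both were highest in CVST+Ligation 2.

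Outside the lists, several genes fell with low p-values and without overlap. Cabp1, a calcium-binding protein gene, was at 89.2, 107 and 100.2 CPM in CVST and at 53.8, 61.9 and 51.6 CPM after ligation. Ngef, a guanine nucleotide exchange factor gene, fell from a mean of 448 ± 115 (SD, n = 3) to 165 ± 61.5 CPM (SD, n = 3). Arpp19 fell from 329 ± 63.7 CPM (SD, n = 3) to 95.6 ± 45.3 CPM (SD, n = 3). Cckbr, the brain receptor of cholecystokinin, Igfbp4, Lpcat4 and Plcl2 fell by 1.25, 1.36, 0.64 and 0.71 on the log2 scale. Of transcripts named for their high CPM, Snap25 of the synaptic vesicle machinery fell by 0.31, the calmodulin gene Calm2 by 0.41 and Actb by 0.46 on the log2 scale. Sparcl1, a secreted protein of astrocytes, rose by 0.45, and Gprasp1 and Rasgrf1 rose by 0.49 and 0.61. Across these genes the adjusted p ranged from 0.202 to 0.502 from edgeR with Benjamini-Hochberg adjustment.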

How the data were processed

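Mouse brain RNA from 9 samples was sequenced as paired reads, and samples were grouped by the names in their labels. According to the methods and the submitters' processing notes, the authors filtered reads with fastp, aligned them with HISAT2, assembled transcripts with StringTie and quantified them with RSEM, and the notes name the builds mm10 and GRCm38. Versions and the program that counted reads are not given in the sources used here, so counts of near-identical or overlapping genes are uncertain. The authors deposited raw counts per gene symbol, and a matrix the methods call TPM but whose values are FPKM, since each deposited FPKM equals the count over the library total and 1 whole-number length per gene. Planned TPM alternatives were run on it.

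The tests used edgeR 4.0.16 in R 4.3.3 (TMM scaling, filterByExpr, quasi-likelihood test, 3 groups without covariates, all 9 libraries, common biological coefficient of variation 0.287). P-values were adjusted over all 14746 genes by Benjamini-Hochberg. Within groups, log2 CPM correlated across genes with r of at least 0.954, and the chi-square of counts per degree of freedom was 24.6 or more for each pair, which shows no duplicated library. Depth and its floor are given with the report. Alternatives were DESeq2 1.42.0, its size factors, total counts, other filters, a replicate block, only these 2 groups, leaving out each library, and limma 3.58.1 on log2(FPKM + 0.1) or log2(FPKM + 1). Scripts were tested on simulated data. Gene positions are from GENCODE vM21 (GRCm38) and promoter windows from RefSeq.

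The members of the lists, the lists and the rule for named genes were chosen with earlier results of these data known. The rule names the genes the study assayed, those passing adjustment, the 10 with the smallest p in each direction without overlap, the 5 with the highest CPM in each direction, and in each list the first 2 and the 4 with the smallest p. Some genes that the rule names are not reported here. Any other gene was chosen after its values were seen.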

Additional observations from a re-analysis of the deposited data

How the results depend on the processing

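The number of genes at an unadjusted p below 0.05 lay between 1183 and 1765 over the alternatives, against 1422, and that at an adjusted p between 0 and 264, against 3. Of those at an unadjusted p, 806 were higher and 616 lower, against 961 and 509 with total counts, 871 and 531 with limma on log2(FPKM + 0.1) and 772 and 763 without CVST 3. The number at an adjusted p was 1 in a fit of only these groups, 264 with DESeq2, 0 when 10 counts were required of each library, 13 with limma on log2(FPKM + 0.1), and 0 to 7 with 1 library left out. With 10 counts in every library 6 dopamine genes and 2 midbrain and brainstem transcription factors rose, because most others were no longer tested, and with any count 17 such factors rose. With limma, 8 cerebellar genes rose on log2(FPKM + 1), and 7 microglial genes fell on either scale. Total counts also left 7 microglial genes. In a fit of only these groups 2 antioxidant genes fell, and 1 meningeal gene rose. With limma on either scale 1 meningeal gene rose and 1 fell. The causes of these last values were not tested. With 1 library left out, 6 to 18 cerebellar genes rose, and 10 to 20 striatal, 3 to 9 cortical excitatory and 5 to 11 microglial genes fell. With the replicate number as a replicate block 1765 genes had an unadjusted p below 0.05 and 1 an adjusted one. Samples of the same number were not shown to be paired: the correlations of their deviations from the group means were 0.07, 0.33 and 0.22, and CVST 1 correlated best with CVST+Ligation 3 (0.12). Genes with too few reads for the expression filter, such as Il6, Tnf, Il17a and Il10, were not tested, so a change in them was not detectable at this depth. The 104 named genes with an unadjusted p below 0.05 kept their direction in all 1541 of their values under the alternatives, and 181 of those values no longer had such a p. Another 24 named genes that did not pass the test changed the sign of their log2 fold change under some alternative, and none of the values with the opposite sign had an unadjusted p below 0.05. With 1 library left out, their log2 fold changes ran over these ranges: Bbc3 -0.14 to 0.07, Bcl2 -0.15 to 0.52, Btg2 -0.41 to 0.64, C3 -1.54 to 0.58, Cacna1g -0.21 to 0.20, Camk2a -0.80 to 0.19, Casp12 -0.59 to 0.77 and Fkbp5 -0.09 to 0.55. They ran likewise for Gfap -0.46 to 0.09, Herpud1 -0.11 to 0.12, Hsp90b1 -0.08 to 0.16, Hspa5 -0.06 to 0.15, Jun -0.67 to 0.06, Lyve1 -0.10 to 1.40, Lyz2 -0.88 to 1.09 and Mrc1 -0.87 to 1.33. For the others they were Nfe2l2 -0.05 to 0.25, Nlrp3 -0.18 to 0.41, Nos2 -0.14 to 0.72, Nr4a2 -0.54 to 0.42, Nr4a3 -0.45 to 0.27, P2ry12 -0.31 to 0.11, Pdia4 -0.19 to 0.07 and Sik1 -0.13 to 0.48. Of these genes, Fkbp5 alone passed an unadjusted edgeR p of 0.05 with a library left out, at 0.55 without CVST+Ligation 2. Among the other settings the log2 fold change of Cacna1g was 0.03 with total counts, 0.02 with the replicate block, and 0.07 and 0.06 with limma on log2(FPKM + 0.1) and log2(FPKM + 1). That of Mrc1 was 0.11 with the replicate block and 0.13 with limma on log2(FPKM + 0.1), that of Pdia4 was 0.01 on either FPKM scale, and that of Btg2 was -0.00 with DESeq2 size factors.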

Other observations

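Voltage-gated potassium channels, which set the firing of neurons, were not described above. Of 31 tested genes 3 rose and 5 fell after ligation, with a median log2 fold change of -0.04, and 1 fell without CVST 2 and 8 without CVST 3, where the median was -0.30. Kcnh4 was at 11.6, 14.8 and 7.59 CPM in CVST and at 2.85, 2.42 and 5.23 CPM after ligation, and Kcnv1 was at 60.7, 68.3 and 59.8 CPM and then at 39.2, 6.65 and 30.7 CPM. Kcnd3 went the other way, from 11.8 to 17.4 CPM to 17.4 to 36.2 CPM. Of 22 cortical interneuron genes 2 rose, 3 fell and 17 did not pass the test, with a median log2 fold change of -0.28. The number that rose was 4 without CVST+Ligation 1, and 5 fell without CVST+Ligation 3, where the median was -0.44. Vip, a peptide of interneurons that inhibit other interneurons, fell from 22.4, 30.3 and 19.2 CPM to 17.3, 10.2 and 12.3 CPM, while Nos1, the neuronal nitric oxide synthase gene, rose from 28.7, 17.4 and 21.5 CPM to 102, 77.9 and 56.6 CPM, and neither overlapped.

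Of 20 clock genes 3 fell and 0 rose. Npas2 was at 50.8, 53.7 and 38.5 CPM in CVST and at 26.7, 13.1 and 28.8 CPM after ligation. The glucocorticoid-responsive genes held 3 of 20 that fell, of which Sgk1 was at 143, 141 and 112 CPM and then at 65.5, 115 and 81.5 CPM, while Fkbp5 overlapped between groups and did not pass the test. The choroid plexus gene Ttr, which encodes transthyretin, was at 769 to 961 CPM in CVST and at 77.2, 5.72 and 835 CPM after ligation. Of 22 genes of choroid plexus and ependyma 1 rose (Otx2) and 0 fell. Their median log2 fold change was -0.44, with 16 values below 0 and 6 above. In that list 0 genes rose without CVST 1, CVST 2, CVST 3 or CVST+Ligation 2, and 2 fell without CVST+Ligation 3.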
